A study of Nicotiana tabacum with 18 samples.

Results

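Protein kinase genes were taken from the differentially expressed genes that a supplementary sheet lists for leaves of the tobacco hybrid Va116×GDH94 against its parent Va116. A gene was included when its description in that sheet holds the words protein kinase, and only its identifier and description were used. The sheet holds 1881 genes, of which 114 met this rule, and all 114 were found among the 69500 genes of the leaf expression table. The description names a protein kinase domain for 105 of them. In the remaining 9 it names another protein kinase entry, among them Nitab4.5_0001143g0070, which carries an aminoglycoside phosphotransferase entry, and Nitab4.5_0001961g0040, which is described as a diacylglycerol kinase.

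Leaf RNA of 6 tobacco (Nicotiana tabacum) genotypes was sequenced 45 days after transplanting, with 3 biological replicates of each and 18 libraries in all. The first cross holds the hybrid Va116×GDH94 with Va116, its first parent, and GDH94. The second holds the hybrid K326×GDH88 with K326, its first parent, and GDH88. The labels give no treatment and no further allele for any group, and each hybrid is represented by 1 combination of parents only.

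Protein kinases move a phosphate group from ATP to serine, threonine or tyrosine residues of other proteins, which switches these proteins on or off. In plants the largest group are the receptor-like kinases, which span the plasma membrane and pass a signal sensed outside the cell to the kinase domain inside it. Behind them act cytoplasmic kinases, such as the mitogen-activated kinases at the end of phosphorylation cascades and the kinases that calcium sensors switch on.

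By the domain entries in their descriptions the genes fell into 8 classes. A leucine-rich repeat, which in plant receptor kinases often binds peptides or hormones, was named for 29. S-domain kinases, known from pollen recognition in Brassica and from immunity in Arabidopsis, numbered 21. Wall-associated kinases, whose outer part binds cell wall pectin, numbered 7, and L-type lectin kinases 3. The 4 kinases with a NAF domain belong to the type that calcineurin B-like calcium sensors bind through that domain, and 2 genes were mitogen-activated kinases. Another named domain was found in 14. The remaining 34 had entries for the catalytic part, with or without a Concanavalin A-like lectin/glucanase entry. Below they are called genes with catalytic entries only. The Concanavalin A-like entry was carried by 62 of the kinase genes, in several classes, and was not counted as a named domain. The kinase genes are scattered over the assembly: 7 scaffold numbers in the identifiers hold 2 or more of them, which covers 15 genes.

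Most of the kinase genes were expressed at a low level. FPKM (fragments scaled to transcript length and library size) averaged over the 18 libraries had a median of 0.971 over the 114 genes, with a range of 0.0478 to 82.6, against 3.30 over the 51326 genes of the table with any value above 0. The class medians lay at 1.08 FPKM for the genes with catalytic entries only, 0.708 for leucine-rich repeat kinases, 0.544 for S-domain kinases and 1.41 for wall-associated kinases. The mitogen-activated kinases stood higher, at 7.69 and 15.5 FPKM.

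Libraries of a genotype were alike, and none stood apart. Log2(FPKM + 1) correlated at 0.976 to 0.989 within genotypes and at 0.931 to 0.978 between genotypes, and 0 pairs of libraries held identical values. The FPKM of a library summed to 887628 to 1062588. Of the leaf genes in the study's primer list, NtLhcb1 had 9.36 to 75.3 FPKM and NtLhcb2 25.6 to 89.9, while NtrbcL had 1.07 to 13.7 and NtPsbA 0.04 to 7.80 FPKM. In leaf RNA fewer cells of a type and less RNA per cell cannot be told apart.

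The median log2(FPKM + 1) over the 114 genes was 1.11 ± 0.047 in Va116×GDH94, against 0.61 ± 0.014 in Va116 and 1.16 ± 0.029 in GDH94 (SD, n = 3 each). In the second cross it was 0.91 ± 0.041 in K326×GDH88, 1.03 ± 0.075 in K326 and 0.70 ± 0.052 in GDH88 (SD, n = 3 each). Va116 and GDH88 were thus the genotypes with the lowest median, and all 6 of their libraries lay below the other 12. Since the sheet was drawn from Va116×GDH94 against Va116, the low value of Va116 follows in part from the choice of the genes, whereas no library of the second cross took part in that choice.

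**Figure D1:**
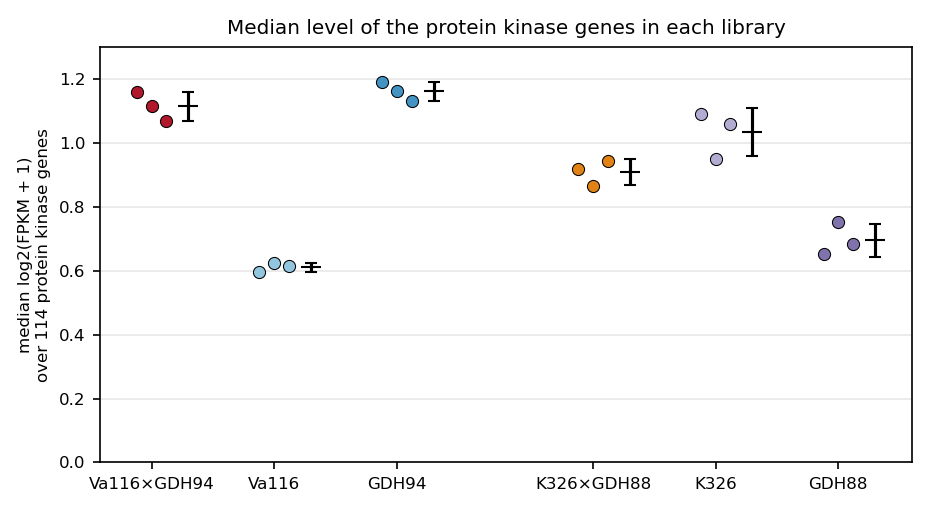
Median log2(FPKM + 1) over the 114 protein kinase genes (vertical axis) in each of 18 leaf libraries, grouped by genotype. Points are libraries, and the black mark with bars is the mean and SD of 3. Va116×GDH94 and GDH94 lie near 1.11 and 1.16 and Va116 near 0.61, while K326×GDH88 and K326 lie near 0.91 and 1.03 and GDH88 near 0.70.

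Values of the first cross describe the genes chosen and were not tested. Of the 114 genes, 98 had the higher mean in Va116×GDH94 and 16 in Va116, and in each of the 114 the hybrid's 3 libraries lay wholly to one side of those of Va116. Over the 36068 genes whose mean reached 1 FPKM in a genotype of this cross, the hybrid's libraries lay wholly above those of Va116 in 30.2% and wholly below in 16.0%. The hybrid mean was higher for 86.0% of the kinase genes and for 57.4% of the other 1767 genes of the sheet, both chosen on these values, and the difference between the shares was not tested. The median difference over the 114 genes was 0.58 on the log2(FPKM + 1) scale, a scale that understates the change of genes with low FPKM.

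Against GDH94 the kinase genes lay on both sides of no difference. The mean was higher in Va116×GDH94 for 66 genes and lower for 48, with a median difference of 0.08. The share higher was 57.9%, beside 44.9% of the genes at FPKM 1, whose median difference was -0.05, and 49.9% of the other genes of the sheet. With the libraries quantile normalized the split was 80 to 34. The hybrid's libraries lay wholly above those of GDH94 in 39 genes and wholly below in 33, beside 25.3% and 32.9% of the genes at FPKM 1. Between the parents, 12 genes were higher in Va116 and 101 higher in GDH94, with a median difference of -0.44 for Va116 minus GDH94. The 3 libraries of Va116 lay wholly below those of GDH94 in 88 genes and wholly above in 7, beside 42.3% and 17.6% over the genes at FPKM 1. Since the libraries of Va116 and of the hybrid had served to choose the genes, the counts of both comparisons follow in part from that choice.

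The hybrid mean lay above both parents for 64 of the 114 genes in Va116×GDH94, between the parents for 36 and below both for 14. All 3 libraries were above the 6 parent libraries in 38 genes and below them in 13, beside 16.2% and 10.9% of the genes at FPKM 1. These counts follow in part from the choice of the genes, which were taken by their difference from Va116. Their difference from the counts of K326×GDH88 was not tested. In K326×GDH88 the mean lay above both parents for 31 genes, between them for 62 and below both for 21. Its 3 libraries were above all 6 parent libraries in 6 genes and below them in 4, beside 7.23% and 16.8% of the 35438 genes of that cross at FPKM 1.

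**Figure D2:**
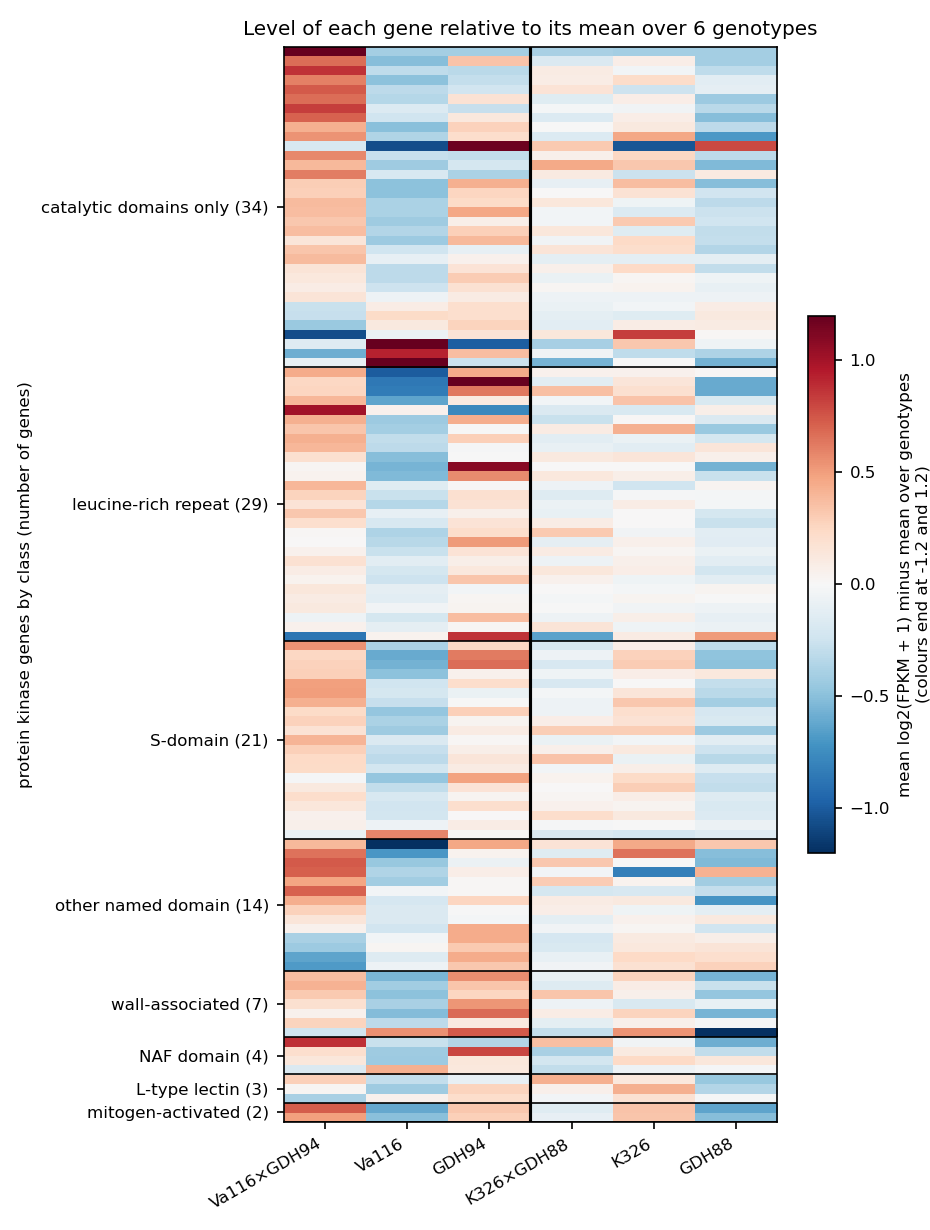
Mean log2(FPKM + 1) of each of the 114 genes in 6 genotypes (columns), relative to the gene's mean over the genotypes, with genes (rows) grouped by class. Red is above and blue below that mean. The Va116 and GDH88 columns are mostly blue. Parent against parent, which the colours do not count, 101 genes were lower in Va116 than in GDH94 and 92 lower in GDH88 than in K326.

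The genes with the largest positive differences from Va116 had unlike patterns over the genotypes. Nitab4.5_0003168g0020, with catalytic entries only, had 4.79, 5.08 and 3.29 FPKM in Va116×GDH94 and was listed at 0 in all libraries of Va116 and GDH94. It was likewise listed at 0 in all libraries of K326 and GDH88, with 0, 0 and 0.03 FPKM in K326×GDH88. Only the 3 libraries of Va116×GDH94 held this transcript above 0.03 FPKM.

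Nitab4.5_0000268g0080 is an AGC kinase, a family named after the cyclic nucleotide and phospholipid dependent kinases. It had 3.54, 3.95 and 3.42 FPKM in Va116×GDH94, against 0, 0.04 and 0.02 in Va116 and 3.95, 3.87 and 3.75 in GDH94. In the second cross it had 3.36, 2.87 and 2.65 FPKM in K326×GDH88, against 4.10, 3.63 and 3.78 in K326 and 3.61, 3.26 and 3.38 in GDH88. Va116 was the genotype in which it was nearly at 0, and the other 15 libraries lay between 2.65 and 4.10 FPKM.

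The leucine-rich repeat kinase Nitab4.5_0001876g0060 had 8.80, 8.88 and 8.27 FPKM in Va116×GDH94, against 2.56, 2.44 and 2.67 in Va116 and 8.91, 8.80 and 8.26 in GDH94. Its hybrid libraries overlapped those of GDH94 and lay wholly above those of Va116, a difference of 1.44. In the second cross its means were 6.41 ± 1.15 FPKM in K326×GDH88, 6.35 ± 0.542 in K326 and 6.19 ± 0.380 in GDH88 (SD, n = 3 each), and the libraries of the 3 genotypes overlapped.

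The 4 genes with the largest negative differences from Va116 all had catalytic entries only. Nitab4.5_0005784g0060 had 0.81, 0.61 and 1.09 FPKM in Va116×GDH94, against 5.33, 4.19 and 3.83 in Va116 and 0.43, 0.53 and 0.97 in GDH94, so the hybrid lay with GDH94. Nitab4.5_0001737g0040 had 1.04, 1.18 and 1.15 FPKM in Va116×GDH94, against 5.39, 5.53 and 4.23 in Va116 and 2.72, 3.15 and 3.53 in GDH94, and here the hybrid lay below both parents. The differences from Va116 were -1.57 and -1.5.

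The smallest differences from Va116 were found in genes of low FPKM. Nitab4.5_0003898g0050, an S-domain kinase, had 0.10 FPKM in each library of Va116×GDH94 and 0.02, 0 and 0 in Va116, a difference of 0.13. The leucine-rich repeat kinases Nitab4.5_0002405g0040 and Nitab4.5_0000057g0040 followed with 0.15 and 0.16. The last of these had 0.13, 0.17 and 0.13 FPKM in Va116×GDH94, against 0.03, 0.04 and 0.01 in Va116 and 0.61, 0.64 and 0.39 in GDH94, so GDH94 was its high genotype in that cross. Outside the sheet, 7 protein kinase genes that only the shortened list against GDH94 holds differed by -0.46 to 0.20 between Va116×GDH94 and Va116.

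The second cross was tested with limma on log2(FPKM + 1), with p-values adjusted by Benjamini-Hochberg over 35438 genes and a call at an adjusted p under 0.05. These were the genes with a mean of at least 1 FPKM in K326×GDH88, K326 or GDH88, and 66 of the 114 kinase genes passed that filter. Of the 66, 33 reached this level in all 3 genotypes and 12 only in K326, so counts over the genes tested are not free of the filter. Of the 48 genes not tested, 2 had no value above 0 in this cross.

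Between the parents most kinase genes were higher in K326. The test called 28 genes higher in K326 than in GDH88 and 3 lower, beside 6.56% higher and 8.52% lower of all genes tested. Over all 114 genes, tested or not, 92 had the higher mean in K326 and 19 in GDH88, with a median difference of 0.26, against -0.06 over all genes tested and 0.03 over the other genes of the sheet. The share with the higher mean in K326 was 80.7% of the kinase genes, 52.3% of the other genes of the sheet and 40.1% of the genes tested. The 3 libraries of K326 lay wholly above those of GDH88 in 58 kinase genes and wholly below in 6, beside 15.0% and 23.9% over the genes tested. Among the 48 genes left out of the test the direction was the same, with 37 higher and 8 lower in K326. With no filter, 112 kinase genes were tested, of which 36 were called higher in K326 and 3 lower, beside 4.29% and 5.26%. Reads of every genotype had been aligned to the genome of K326, and the part of that in these differences was not tested.

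K326×GDH88 also lay above GDH88 in most kinase genes. The test called 22 kinase genes higher in K326×GDH88 than in GDH88 and 4 lower, where 10.5% of all genes tested were called higher and 25.1% lower. This comparison shares the GDH88 libraries with that of K326 and GDH88. Over all 114 genes 82 had the higher mean in K326×GDH88 and 30 in GDH88, with a median difference of 0.18, against -0.12 over the genes tested. Without the filter 33 were called higher and 3 lower, beside 6.94% and 16.3% of all genes, and with a 2-fold limit added 1 was called higher and 1 lower, beside 1.4% and 0.934%. Its 3 libraries lay wholly above those of GDH88 in 56 kinase genes and wholly below in 11, beside 15.4% and 37.2%. With median-ratio scaling, which shifts all genes by 0.13 on this comparison, the calls were 29 higher and 1 lower, beside 16.9% and 14.6%. Leaving out 1 library brought the count of higher calls to 13 without GDH88 replicate 3 and to 14 without GDH88 replicate 1 or K326×GDH88 replicate 1, and the lower calls to 2 without any 1 library of GDH88.

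Against K326 the hybrid tended the other way. The test called 4 kinase genes higher in K326×GDH88 than in K326 and 10 lower, beside 9.49% and 14.1% of all genes tested, which is 6.06% and 15.2% of the 66 tested, so neither share stood far from that of all genes. Over all 114 genes 40 had the higher mean in K326×GDH88 and 72 in K326, and the median difference of -0.10 was close to the -0.09 of all genes tested. Its libraries lay wholly above those of K326 in 9 kinase genes and wholly below in 28, beside 14.1% and 23.8%. Without the filter 5 were called higher and 14 lower, beside 5.81% and 7.68% of all genes, and with a 2-fold limit added 1 was called higher and 0 lower, beside 0.708% and 0.451%. Libraries scaled to equal totals, a setting that shifts all genes by -0.12 here, gave 2 higher and 21 lower, beside 6% and 27.7%. The higher calls numbered 2 without K326 replicate 1, without K326×GDH88 replicate 2 or without GDH88 replicate 3.

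**Figure D3:**
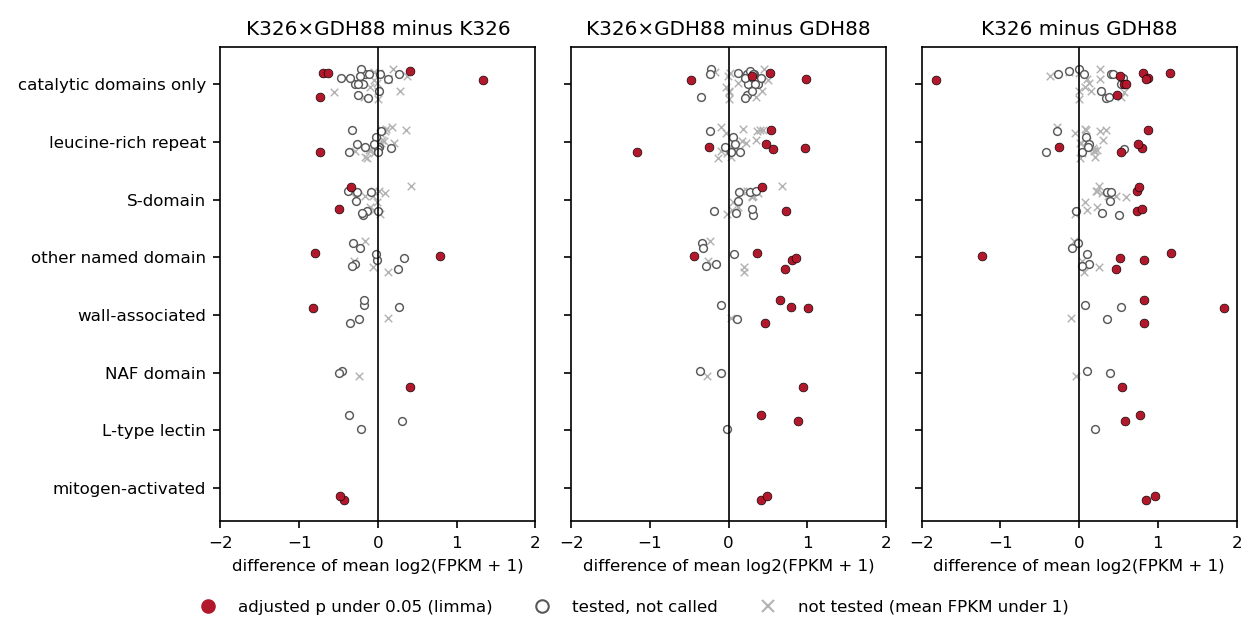
Difference of mean log2(FPKM + 1) in the second cross for each of the 114 genes by class, for K326×GDH88 minus K326 (left), K326×GDH88 minus GDH88 (middle) and K326 minus GDH88 (right). Filled points were called by limma, open points were tested and not called, and crosses were not tested. In the right panel 28 filled points lie above 0 and 3 below, and in the left panel 4 lie above 0 and 10 below.

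Set against the mean of both parents on the log2 scale, 11 kinase genes were above this mid-parent value in K326×GDH88 and 4 below, beside 10.9% and 23.8% of all genes tested. The median deviation was 0.03 over the 114 genes and -0.10 over all genes tested. With equal totals there were 8 above and 8 below, beside 6.92% and 36.7% of all genes tested. With median-ratio scaling there were 13 above and 2 below, beside 17.4% and 14.2%. The count above was 5 without K326×GDH88 replicate 1 or replicate 2 and 7 without GDH88 replicate 3, and that below was 1 without K326×GDH88 replicate 1 and 2 without K326×GDH88 replicate 2, K326 replicate 1, GDH88 replicate 1 or GDH88 replicate 2. Called above both parents was 1 gene and below both 1, beside 4.24% and 9.01%.

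Of the 98 kinase genes above Va116 in Va116×GDH94, 37 were higher in K326×GDH88 than in K326 and 59 lower, a share of 37.8% higher. This is close to the 38.4% of all genes tested that had the higher mean in K326×GDH88, and for the 1014 other genes of the sheet that were higher in Va116×GDH94 the share was 49.9%. Of the 16 kinase genes lower in Va116×GDH94, 3 were higher and 13 lower in K326×GDH88. Taken by libraries without overlap, 9 genes were above the first parent in both hybrids, 7 below it in both, and 21 above Va116 in Va116×GDH94 but below K326 in K326×GDH88. Over all genes tested K326×GDH88 lay wholly above K326 in 14.1% and wholly below in 23.8%. The 9 and the 21, both among the 98 genes above Va116, are near or below these shares. The 7 come from the 16 genes below Va116, a larger share than 23.8% but of few genes. No gene lay wholly below Va116 in Va116×GDH94 and wholly above K326 in K326×GDH88. The first parents differed in rank, since Va116 was mostly the lower parent of its cross and K326 mostly the higher: of the same 98 genes, 84 were higher in K326 than in GDH88, which is 85.7%, beside 64.7% of the other genes of the sheet and 40.1% of all genes tested.

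**Figure D4:**
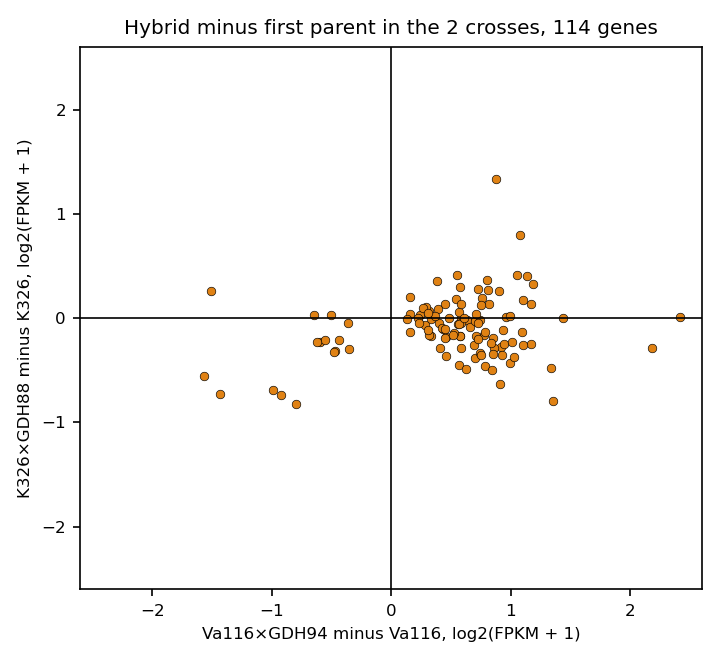
Each of the 114 genes by its difference Va116×GDH94 minus Va116 (horizontal axis) and K326×GDH88 minus K326 (vertical axis), both of mean log2(FPKM + 1). The horizontal position was used to choose the genes. To the right of 0, 37 genes lie above the horizontal line and 59 below it.

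A NAF domain kinase was the gene above both parents. Nitab4.5_0004880g0010 had 8.53, 11.2 and 8.36 FPKM in K326×GDH88, against 6.22, 7.38 and 6.79 in K326 and 4.81, 3.94 and 4.26 in GDH88. Each hybrid library exceeded the 6 of the parents. The difference was 0.40 (SE 0.12, limma adjusted p = 0.035) against K326 and 0.95 (SE 0.12, limma adjusted p = 0.00054) against GDH88. The first of these calls was lost, at limma adjusted p of 0.053 to 0.11, without K326×GDH88 replicate 2, K326 replicate 1, K326 replicate 3 or GDH88 replicate 3, and at 0.061 with no filter and 0.076 with equal totals. In the first cross it had 13.6, 11.8 and 16.0 FPKM in Va116×GDH94, against 4.70, 5.69 and 6.75 in Va116 and 5.89, 4.95 and 4.96 in GDH94, again with the hybrid above all 6 parent libraries.

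The other NAF domain kinases did not share this pattern. Nitab4.5_0000126g0060 had 0.55, 0.34 and 0.69 FPKM in K326×GDH88, below the 1.14, 1.01 and 1.10 in K326 and overlapping the 0.94, 1.27 and 0.68 in GDH88. Nitab4.5_0000462g0210 had 0.29, 0.77 and 0.31 FPKM in K326×GDH88, against 1.25, 0.79 and 1.06 in K326 and 0.56, 0.67 and 0.40 in GDH88. Neither passed the test against a parent, and Nitab4.5_0000375g0160 stayed under the filter with means of 0.547 to 0.870 FPKM. Against the mid-parent value Nitab4.5_0000126g0060 was called lower, by -0.41 (SE 0.13, limma adjusted p = 0.037). That call was lost in 6 of the 9 fits that left out 1 library. The gene had passed the filter of 1 FPKM through K326 only, so the call is not free of the filter.

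A leucine-rich repeat kinase was the gene below both parents. Nitab4.5_0005344g0010 had 2.18, 2.16 and 2.91 FPKM in K326×GDH88, against 6.26, 3.75 and 4.33 in K326 and 6.74, 5.71 and 7.40 in GDH88. The hybrid's libraries lay below all 6 parent libraries. The difference was -0.74 (SE 0.16, limma adjusted p = 0.010) against K326 and -1.16 (SE 0.16, limma adjusted p = 0.0009) against GDH88, and both calls were kept in all 9 fits that left out 1 library. The hybrid of the first cross was lowest too, with 3.17, 1.79 and 1.10 FPKM in Va116×GDH94, against 3.56, 4.66 and 5.39 in Va116 and 9.37, 8.50 and 8.34 in GDH94.

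Among the 29 leucine-rich repeat kinases, 28 were higher in Va116×GDH94 than in Va116, the comparison that chose the genes. In 24 the mean was higher in K326 than in GDH88, beside 40.1% of all genes tested. Of the 12 tested, 4 were called higher and 1 lower in K326 than in GDH88, beside 6.56% and 8.52%. Against GDH88, 4 were called higher and 2 lower in K326×GDH88, beside 10.5% and 25.1%. Nitab4.5_0005157g0010 had 3.04, 2.19 and 2.70 FPKM in K326×GDH88, against 3.42, 1.5 and 2.04 in K326 and 0.98, 1.02 and 0.60 in GDH88. Every library of the hybrid and of K326 lay above those of GDH88, while hybrid and K326 overlapped. The hybrid differed from GDH88 by 0.97 (SE 0.20, limma adjusted p = 0.0054).

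Nitab4.5_0000227g0020 had the highest level of all 114 genes. It had 67.2, 68.3 and 67.9 FPKM in K326×GDH88, against 72.1, 70.2 and 60.6 in K326 and 81.4, 78.9 and 81.3 in GDH88. Va116×GDH94 and its parents differed more: it had 143, 154 and 170.0 FPKM in Va116×GDH94, against 76.3, 78.5 and 83.7 in Va116 and 45.3, 44.6 and 43.2 in GDH94. The hybrid of the first cross exceeded both parents, whereas K326×GDH88 overlapped K326 and lay below GDH88, with a difference of -0.25 (SE 0.07, limma adjusted p = 0.027). That call was lost at limma adjusted p of 0.064 to 0.087 without K326×GDH88 replicate 1 or any 1 library of GDH88, and with median-ratio scaling at limma adjusted p = 0.42.

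Of the 21 S-domain kinases, 19 were higher in K326 than in GDH88, with K326 libraries wholly above those of GDH88 in 16. Over all 114 kinase genes 80.7% were higher in K326 and 50.9% wholly above, and over all genes tested 40.1% and 15.0%. In the first cross, whose values chose the genes, 20 of the 21 were higher in Va116×GDH94 than in Va116. The median difference of K326 minus GDH88 was 0.36 in this class, beside 0.11 for leucine-rich repeat kinases, 0.31 for genes with catalytic entries only and 0.53 for wall-associated kinases. Of the 10 S-domain kinases tested, 4 were called higher in K326 than in GDH88 and 2 higher in K326×GDH88 than in GDH88. Against K326, 2 were called lower in K326×GDH88, and 0 were called in the opposite directions. Over all genes tested these shares were 6.56%, 10.5% and 14.1%, and 8.52%, 25.1% and 9.49% in the opposite directions.

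The S-domain kinase with the highest level, Nitab4.5_0004469g0020, had 3.64, 3.46 and 3.86 FPKM in K326×GDH88, against 4.89, 4.61 and 5.19 in K326 and 2.54, 2.87 and 2.04 in GDH88. No libraries of the 3 genotypes overlapped, and the hybrid lay between its parents. K326 exceeded GDH88 by 0.77 (SE 0.11, limma adjusted p = 0.0011). The hybrid differed by 0.42 from GDH88 (SE 0.11, limma adjusted p = 0.014, and 0.060 without GDH88 replicate 3) and by -0.34 from K326 (SE 0.11, limma adjusted p = 0.045), a call that, with 1 library left out, was kept only without K326×GDH88 replicate 3 or GDH88 replicate 3. It was also lost with a pseudocount of 0.1, no filter, median-ratio scaling or quantile normalization, at limma adjusted p of 0.054 to 0.15. The order of the first cross was the same with GDH94 as the high parent, at 4.76, 4.97 and 4.55 FPKM in Va116×GDH94, against 2.14, 2.33 and 2.13 in Va116 and 6.32, 6.60 and 6.46 in GDH94.

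Both mitogen-activated kinases, which stand at the end of a cascade of kinases that relays stress and growth signals, had the same order of genotypes. Nitab4.5_0000022g0300 had 14.4, 12.0 and 15.3 FPKM in K326×GDH88, against 17.7, 16.2 and 23.6 in K326 and 9.87, 10.4 and 9.95 in GDH88. Nitab4.5_0013692g0010 had 6.73, 6.12 and 6.33 FPKM in K326×GDH88, against 9.46, 8.22 and 10.4 in K326 and 4.55, 4.01 and 4.25 in GDH88. In both genes the hybrid's libraries lay between those of the parents without overlap.

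K326 exceeded GDH88 by 0.85 (SE 0.13, limma adjusted p = 0.0017) in Nitab4.5_0000022g0300 and by 0.97 (SE 0.10, limma adjusted p = 0.00011) in Nitab4.5_0013692g0010. The hybrid differed by -0.43 and -0.48 from K326 (limma adjusted p = 0.037 and 0.0074) and by 0.42 and 0.49 from GDH88 (limma adjusted p = 0.030 and 0.0047). In Nitab4.5_0000022g0300 the call against K326 was kept only without K326×GDH88 replicate 3 or K326 replicate 2, and that against GDH88 only without K326×GDH88 replicate 2 or a library of K326. With no filter these were at limma adjusted p of 0.067 and 0.054, and the first also missed the threshold with median-ratio scaling (0.084) and quantile normalization (0.062), the second with equal totals (0.085). The hybrid of the first cross stood higher, at 21.6, 17.4 and 25.8 FPKM in Va116×GDH94, against 9.17, 10.5 and 11.1 in Va116 and 16.9, 19.3 and 18.7 in GDH94 for Nitab4.5_0000022g0300. Nitab4.5_0013692g0010 had 13.5, 10.6 and 13.5 FPKM in Va116×GDH94, against 4.26, 4.67 and 4.09 in Va116 and 10.3, 8.33 and 9.08 in GDH94. Va116×GDH94 was wholly above both parents in the second of these genes and overlapped GDH94 in the first.

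**Figure D5:**
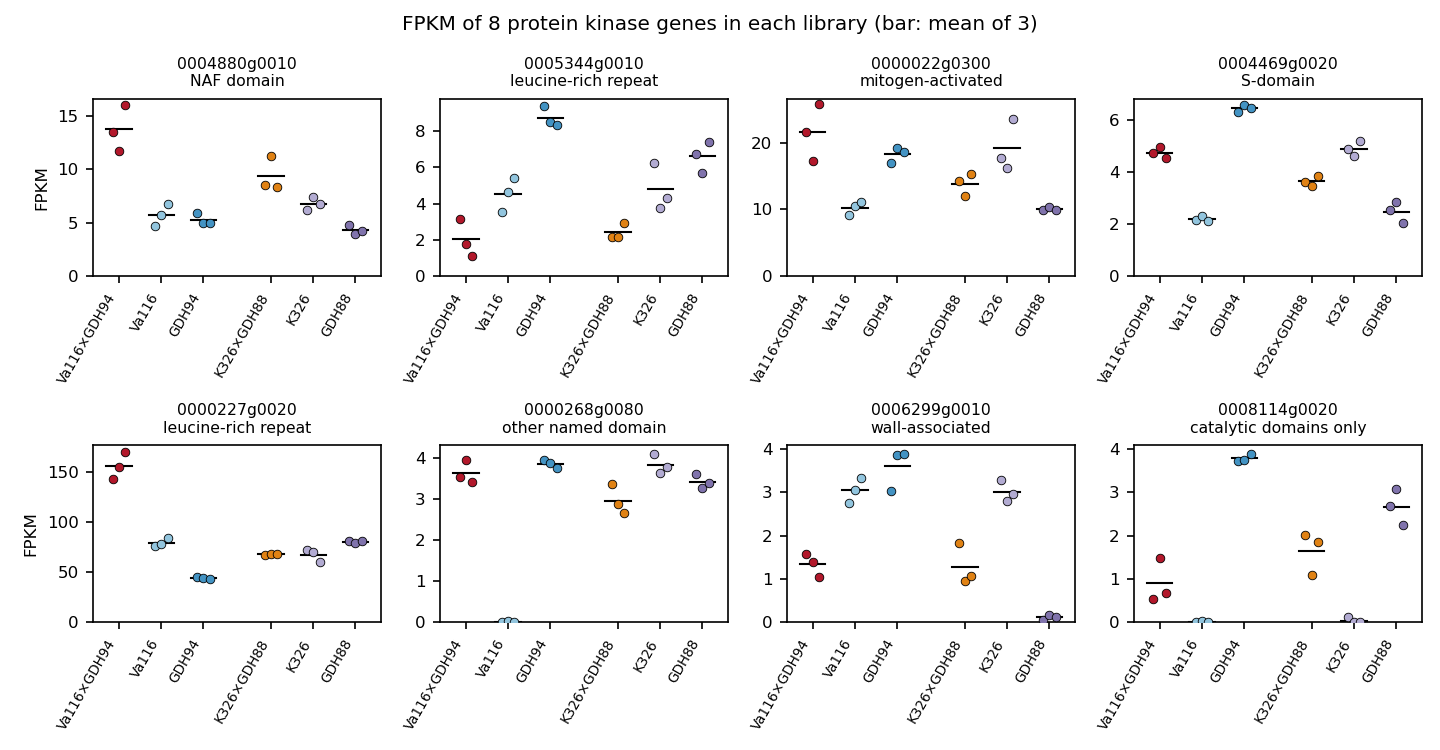
FPKM of 8 of the kinase genes in the 18 libraries, with panels headed by the identifier after Nitab4.5_ and by the class. Points are libraries and bars are means of 3. Nitab4.5_0004880g0010 is highest in both hybrids, Nitab4.5_0005344g0010 lowest in both, and the mitogen-activated and S-domain kinases place K326×GDH88 between K326 and GDH88.

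Among wall-associated kinases, 4 of the 6 tested were called higher in K326×GDH88 than in GDH88 and 0 lower, beside 10.5% and 25.1% of all genes tested. Of the 6, 3 were called higher in K326 than in GDH88, beside 6.56%. Only 1 was called lower in K326×GDH88 than in K326, beside 14.1%. That 1 was Nitab4.5_0006299g0010, with 1.84, 0.95 and 1.08 FPKM in K326×GDH88, against 3.28, 2.81 and 2.95 in K326 and 0.06, 0.18 and 0.12 in GDH88. The 3 genotypes did not overlap. It differed by -0.83 from K326 (SE 0.16, limma adjusted p = 0.0052) and by 1.01 from GDH88 (SE 0.16, limma adjusted p = 0.0015), and K326 exceeded GDH88 by 1.84 (SE 0.16, limma adjusted p = 3.3e-05). This gene was also the wall-associated kinase lower in Va116×GDH94, with 1.57, 1.40 and 1.04 FPKM beside 2.75, 3.06 and 3.33 in Va116 and 3.04, 3.86 and 3.89 in GDH94.

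Nitab4.5_0003514g0020 had 1.57, 1.18 and 1.71 FPKM in K326×GDH88, against 1.74, 1.83 and 1.82 in K326 and 0.49, 0.78 and 0.49 in GDH88, so that hybrid and K326 lay close together, without overlap, and both above GDH88. The hybrid exceeded GDH88 by 0.65 (SE 0.13, limma adjusted p = 0.0056). The wall-associated kinase with the highest level, Nitab4.5_0006282g0060, averaged 2.68 ± 0.409 FPKM in K326×GDH88, 3.33 ± 0.252 in K326 and 2.40 ± 0.136 in GDH88 (SD, n = 3 each) and was not called in any comparison.

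Of the 3 L-type lectin kinases, 2 were called higher in both K326×GDH88 and K326 than in GDH88. The shares called higher over all genes tested were 10.5% for K326×GDH88 and 6.56% for K326. Both genes passed the filter of 1 FPKM through 1 genotype only, in which they were high. This was K326×GDH88 for Nitab4.5_0000230g0020 and K326 for Nitab4.5_0000705g0010, so these calls are not free of the filter. Nitab4.5_0000230g0020 had 0.98, 1.10 and 1.18 FPKM in K326×GDH88, against 0.72, 0.53 and 0.84 in K326 and 0.13, 0.12 and 0.15 in GDH88. Its level was higher in each hybrid library than in every parent library of the same cross, with 1.03, 0.98 and 0.70 FPKM in Va116×GDH94, against 0.28, 0.27 and 0.27 in Va116 and 0.40, 0.44 and 0.53 in GDH94. K326×GDH88 exceeded GDH88 by 0.88 (SE 0.14, limma adjusted p = 0.0016), and its difference of 0.30 from K326 did not pass (SE 0.14, limma adjusted p = 0.13). The call of K326 against GDH88 was lost, at limma adjusted p of 0.054 to 0.071, without K326 replicate 3 or any 1 library of GDH88. Nitab4.5_0000705g0010 had 0.77, 0.67 and 0.54 FPKM in K326×GDH88, against 1.14, 1.11 and 1.14 in K326 and 0.18, 0.22 and 0.33 in GDH88, with no overlap. Its difference of 0.42 from GDH88 (limma adjusted p = 0.033) missed the threshold without K326×GDH88 replicate 1, K326×GDH88 replicate 2 or any 1 library of GDH88, at 0.056 to 0.10.

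Other genes were lower in K326 than in GDH88. Nitab4.5_0001143g0070, the phosphotransferase-like gene, had 14.1, 16.3 and 12.6 FPKM in K326×GDH88, against 7.16, 8.28 and 8.02 in K326 and 19.5, 19.8 and 19.9 in GDH88. K326 was here the low parent, with a difference of -1.23 (SE 0.10, limma adjusted p = 2e-05), and the hybrid stood between the parents at 0.79 above K326 (SE 0.10, limma adjusted p = 0.00061). Among the other genotypes it had 22.9, 25.3 and 25.7 FPKM in Va116×GDH94, against 11.6, 10.8 and 11.1 in Va116 and 14.3, 17.1 and 15.0 in GDH94, with the hybrid above both.

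Nitab4.5_0008114g0020, with catalytic entries only, was nearly absent from both first parents. It had 2.02, 1.10 and 1.85 FPKM in K326×GDH88, against 0.12, 0 and 0 in K326 and 2.68, 3.09 and 2.25 in GDH88. Likewise it had 0.54, 1.49 and 0.67 FPKM in Va116×GDH94, against 0, 0.04 and 0 in Va116 and 3.73, 3.74 and 3.89 in GDH94. Both hybrids lay between their parents without overlap. K326×GDH88 exceeded K326 by 1.34 (SE 0.16, limma adjusted p = 0.0006), and K326 lay below GDH88, with a difference of -1.82 (SE 0.16, limma adjusted p = 4.9e-05).

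Nitab4.5_0006221g0050 joins a kinase domain to a U box, the part by which some ubiquitin ligases bind their partner enzyme. It had 0.88, 0.80 and 1.06 FPKM in K326×GDH88, against 2.13, 2.29 and 2.56 in K326 and 0.56, 0.52 and 0.38 in GDH88. The hybrid lay below K326, with a difference of -0.80 (SE 0.13, limma adjusted p = 0.0022). In this cross the gene passed the filter of 1 FPKM through K326 only, where it was high, so the call is not free of the filter. In Va116×GDH94 it had 2.33, 2.21 and 2.44 FPKM, above the 0.27, 0.27 and 0.36 in Va116 and the 1.35, 1.24 and 0.96 in GDH94, so the hybrids stood on opposite sides of their first parents.

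Of the 20 tested genes with catalytic entries only, 8 were called higher and 1 lower in K326 than in GDH88. Over all genes tested these shares were 6.56% and 8.52%. In K326×GDH88, 3 were called higher and 1 lower than in GDH88, beside 10.5% and 25.1%. Against K326, 2 were called higher and 3 lower in K326×GDH88, close to the 9.49% and 14.1% of all genes. The gene of this class with the highest level, Nitab4.5_0000694g0050, had 8.39, 7.35 and 7.03 FPKM in K326×GDH88, against 9.41, 8.76 and 9.38 in K326 and 6.48, 6.11 and 6.26 in GDH88. K326 exceeded GDH88 by 0.48 (SE 0.09, limma adjusted p = 0.0039), and the hybrid stood between them without overlap, at limma adjusted p of 0.059 against K326 and 0.054 against GDH88. The first cross gave 14.4, 13.9 and 14.6 FPKM in Va116×GDH94, against 5.51, 5.85 and 6.01 in Va116 and 11.4, 11.4 and 10.8 in GDH94.

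Of the 3 genes with catalytic entries only that were called lower in K326×GDH88 than in K326, 2 were also among the 4 lowest against Va116. Nitab4.5_0006196g0030 had 0.41, 0.82 and 0.69 FPKM in K326×GDH88, against 2.13, 1.43 and 1.60 in K326 and 0.87, 1.34 and 1.07 in GDH88, a difference of -0.73 from K326 (SE 0.16, limma adjusted p = 0.0096). Nitab4.5_0001268g0020 had 3.55, 3.07 and 4.12 FPKM in K326×GDH88, against 6.69, 6.84 and 5.64 in K326 and 2.85, 3.44 and 3.33 in GDH88, a difference of -0.69 from K326 (SE 0.12, limma adjusted p = 0.0030). Both had also been lower in Va116×GDH94 than in Va116, at 0.943 ± 0.220 against 4.23 ± 0.336 FPKM and at 1.02 ± 0.434 against 2.96 ± 0.261 FPKM (SD, n = 3 each).

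Nitab4.5_0004524g0010 rose most against GDH88 among the genes with catalytic entries only, with 1.25, 1.60 and 1.53 FPKM in K326×GDH88, against 0.86, 1.42 and 1.5 in K326 and 0.11, 0.40 and 0.23 in GDH88. The hybrid overlapped K326 and lay above GDH88 by 0.98 (SE 0.16, limma adjusted p = 0.0019). Nitab4.5_0004273g0010 had 5.91, 7.77 and 5.16 FPKM in K326×GDH88, against 3.97, 4.19 and 5.18 in K326 and 4.78, 5.02 and 5.06 in GDH88. Its call against K326, at 0.41 (SE 0.13, limma adjusted p = 0.048), was kept only without K326×GDH88 replicate 3 or K326 replicate 3, and was lost with no filter (0.085) and with equal totals (0.10).

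Signalling genes of the same sheet that are not protein kinases were counted too. Protein phosphatases, which remove the phosphate groups, had 5 of 9 tested called higher and 2 lower in K326×GDH88 than in GDH88, and 2 higher and 2 lower in K326 than in GDH88. Among 14 calcium sensors, 6 were called higher and 3 lower in K326×GDH88 than in K326, and 1 higher and 3 lower in K326 than in GDH88. Among 18 leucine-rich repeat proteins without a kinase description, 12 were called higher and 1 lower in K326 than in GDH88. Neither of the 2 histidine kinases passed the filter. Of the 1380 other genes of the sheet that were tested, 358 were called higher and 173 lower in K326 than in GDH88. Over all genes tested the shares called higher and lower were 6.56% and 8.52% for K326 against GDH88, 10.5% and 25.1% for K326×GDH88 against GDH88, and 9.49% and 14.1% for K326×GDH88 against K326. The sheet chose these lists too, and no test of a difference between lists was run.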

How the data were processed

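Leaf RNA-seq values of 18 libraries were used, in 6 genotypes with 3 biological replicates each, and genotypes came from the sample labels. After trimming, the authors mapped reads of every genotype to the genome of K326 (HISAT2) and used RSEM for expression, and the submitters' notes also list StringTie. Versions are not given in the sources used here. The authors deposited FPKM to 2 decimals, which carry no read number, so the depth behind a gene's value is unknown and its precision was taken from the replicates. Similar gene copies depend on how RSEM divided shared reads. The sheet's fold changes and p-values were not used.

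The members and lists were chosen with earlier results of these data known. In the second cross, genes whose mean reached 1 FPKM in at least 1 genotype entered a two-sided test on log2(FPKM + 1) in R 4.3.3 with limma 3.58.1 (lmFit, contrasts.fit and eBayes with a trend), over its 9 libraries and without a covariate. P-values rest on a spread per gene that was pooled over the 3 replicates of each genotype and moderated by eBayes. The genotypes differed in spread, with a median SD of log2(FPKM + 1) of 0.152 in K326×GDH88, 0.134 in K326 and 0.080 in GDH88. The first cross was described and not tested. An exact permutation test of 3 against 3 could not give a p under 0.1. The procedure was also run on simulated data, with changes added in the hybrid only and in genes of a higher level than most of the kinase genes. That run does not show how the procedure performs at their level. Counts and figures were made with Python 3.11.15, NumPy 2.4.6, pandas 2.3.3 and Matplotlib 3.10.9.

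The genes named were the 4 largest positive and 4 largest negative differences of Va116×GDH94 from Va116 and, among genes called, of K326×GDH88 from each parent, those beyond both parents, the highest of each class, and the 3 smallest differences from Va116. The other genes of classes with up to 7 members were added after their values were seen. Alternatives were the pseudocount, the filter, 3 scalings, the replicate number as a block, all 18 libraries in a fit, a 2-fold limit, a narrower choice of members and leaving out each library. No sequence is printed, since 0 identifiers matched the RefSeq gene table.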

Additional observations from a re-analysis of the deposited data

Results flagged for a closer look

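In 12 of the genes named, the 3 hybrid libraries lay wholly above the first parent in Va116×GDH94 and wholly below it in K326×GDH88. Among all 98 kinase genes above Va116, 21 lay wholly below K326 in K326×GDH88. That is close to the 23.8% of all genes tested that lay wholly below K326. The difference between the crosses was not tested, since the first cross had served to choose the genes. The values of K326×GDH88 minus K326 in log2(FPKM + 1) were -0.80 for the U box kinase Nitab4.5_0006221g0050, and -0.43 and -0.48 for the mitogen-activated kinases Nitab4.5_0000022g0300 and Nitab4.5_0013692g0010. The S-domain kinase Nitab4.5_0004469g0020 had -0.34, the AGC kinase Nitab4.5_0000268g0080 -0.29, the L-type lectin kinase Nitab4.5_0000705g0010 -0.36 and Nitab4.5_0000694g0050, with catalytic entries only, -0.25. The NAF domain kinases Nitab4.5_0000126g0060 and Nitab4.5_0000462g0210 had -0.45 and -0.49. Among wall-associated kinases the values were -0.35 for Nitab4.5_0000444g0090, -0.18 for Nitab4.5_0003514g0020 and -0.24 for Nitab4.5_0006282g0060. Of these 12, 4 passed the test against K326, among them Nitab4.5_0006221g0050, which entered the test through its level in K326 only.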

How the results depend on the processing

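No named gene called in the second cross changed sign under an alternative. The balance of higher to lower calls did change for K326×GDH88 against K326, from mostly lower to 1 higher and 0 lower with a 2-fold limit, and for the mid-parent value, which had 8 above and 8 below with equal totals. The balance over all genes tested moved too. It was 0.708% higher and 0.451% lower against K326 with the 2-fold limit. Against the mid-parent value it was 6.92% above and 36.7% below with equal totals, and 10.9% and 23.8% in the main fit. With the 2-fold limit, K326 against GDH88 kept 3 higher and 2 lower calls, K326×GDH88 against GDH88 1 and 1, K326×GDH88 against K326 1 and 0, and 0 genes stayed above or below the mid-parent value or beyond both parents. Libraries scaled to equal totals gave 2 higher and 21 lower calls against K326, beside 6% and 27.7% of all genes tested. They gave 8 below the mid-parent value, beside 36.7%, and 0 above both parents. All 18 libraries in a fit gave 21 lower calls against K326, beside 21.7%, with 2 genes above both parents and 3 below both. Median-ratio scaling gave 1 lower call against GDH88 and 2 below the mid-parent value, beside 14.6% and 14.2%. Above both parents it gave 2, quantile normalization 2 and no filter 3. No share of all genes is given here for calls beyond both parents under these settings. In the first cross the median difference was 1.26 against Va116 and 0.18 against GDH94 with a pseudocount of 0.1, and against GDH94 0.18 with quantile normalization and 0.025 with equal totals.

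Leaving out each library in turn gave 2 to 4 higher and 7 to 13 lower calls for K326×GDH88 against K326, 13 to 23 and 2 to 5 against GDH88, 5 to 10 above and 1 to 5 below the mid-parent value, and 22 to 29 and 2 to 4 for K326 against GDH88. It gave 0 to 2 genes above both parents (0 without K326×GDH88 replicate 2, K326 replicate 1, K326 replicate 3 or GDH88 replicate 3, and 2 without K326×GDH88 replicate 3) and 1 to 2 below both (2 without K326×GDH88 replicate 3). In the first cross the counts ranged from 98 to 98 and 16 to 16 against Va116 and from 65 to 70 and 44 to 49 against GDH94, with medians of 0.58 to 0.61 and 0.06 to 0.08. Of the 28 genes called higher in K326 than in GDH88, 20 were called in all 9 such fits, and of the 22 called higher in K326×GDH88 than in GDH88, 13.

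With the replicate number as a block, the calls were 3 higher and 9 lower against K326, 20 and 3 against GDH88, 10 above and 2 below the mid-parent value, and 27 and 2 for K326 against GDH88. In the same order, the shares of all genes tested were 9.38% and 14%, 10.6% and 24.4%, 10.8% and 23%, and 6.23% and 8.01%. Same-numbered libraries deviated together at r of -0.03 to 0.22, so the numbers were not taken as a pairing. FPKM without read numbers limits what can be said of the 48 genes under the filter.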
